A study of Homo sapiens with 24 samples.

Results

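The 8 genes AXIN2, DKK1, DKK4, NOTUM, NKD1, RNF43, ZNRF3 and APCDD1 encode inhibitors of WNT signalling that the pathway itself switches on. They were picked by symbol from the 33382 genes of the deposited tables, all 8 were listed there, and all 8 had enough counts to be tested. The libraries came from SW480 and SW620, a pair of colorectal adenocarcinoma cell lines that the study describes as derived from 1 patient. Cells were infected with a lentivirus that carried the catalytic domain of the 5-methylcytosine dioxygenase TET2 (Tet2CD) or with the empty vector, and every group was selected with 5 µg/ml puromycin. Treatment lasted 24 h and was DMSO alone, the growth factor TGFB1 (4 ng/ml) or RepSox (1 µM), which blocks ALK5, the kinase of the type I TGF-beta receptor. The study's supplementary legends give another ligand mix and a longer treatment than the labels, and the labels were followed. Line, construct and treatment made 12 groups of 2 libraries. Tet2CD cells were compared with vector cells of the same line and treatment. TGFB1 and RepSox were compared with DMSO in the same line, averaged over both constructs. Comparisons made otherwise are named where they are given. The labels name no clone.

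Libraries held 2146123 to 4410567 expected counts (median 3653712). TET2 counts, to which the construct would add, were between 270 and 2640 CPM (the count scaled to library size) in the 12 Tet2CD libraries and between 10.3 and 25 CPM in the 12 vector libraries. All 8 colorectal epithelium markers were tested, with a summed level of 7230 to 20930 CPM, whereas the blood, endothelial and fibroblast lists summed to 2.46 to 13.6, 2.9 to 16.3 and 6.67 to 35.9 CPM. No gene of these lists was at 0 in all libraries. In SW480 the endothelial list summed to 7.02 to 14.4 CPM with Tet2CD and to 2.9 to 5.69 CPM with vector, and the fibroblast list to 14.1 to 23.5 and 6.67 to 14.2 CPM. The part of these genes in the Tet2CD results below was not tested. The 3 SW480 Tet2CD libraries named replicate 1 stood apart. Their counts came from genes of higher GC content (a mean of 52.9 to 54% against 50.1 to 52.2% in the other 21), ribosomal protein genes took 10.1 to 15% of their counts against 5.74 to 9.42%, and the SD of the log2 difference between the libraries of a group was 0.697 to 1.13 in the 3 groups they belong to against 0.409 to 0.541 elsewhere. Several results that changed without these 3 libraries are given with both values, but not all, and those of the pathway lists only in part.

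WNT ligands bind Frizzled and LRP5/6 receptors at the cell surface, which stops the destruction complex from degrading beta-catenin, so that beta-catenin enters the nucleus and activates genes together with TCF/LEF factors. Some of these target genes encode brakes on the pathway, which act at successive steps: NOTUM removes the lipid from the WNT ligand, DKK1 and DKK4 bind the co-receptor, APCDD1 binds ligand and co-receptor, RNF43 and ZNRF3 remove the receptor, NKD1 binds Dishevelled, and AXIN2 is a scaffold of the destruction complex. In most colorectal cancers the destruction complex is impaired by loss of APC, and raised levels of such genes are a common readout of beta-catenin activity.

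Promoter windows of 300 bases, from 250 bases before to 50 after the start of the gene, were held by RefSeq (GRCh38.p14) for 3 of the 8 genes, DKK1, RNF43 and APCDD1. Those of DKK1 and APCDD1 are shown because these were the 2 genes that rose with RepSox in SW620. Capitals mark TCF/LEF heptamers. The letters searched, on both strands, were CTTTGAA with its variant form CTTTGAT, and likewise CTTTGTT with its variant form CTTTGTA, and no match overlapped another.
DKK1 promoter, chr10:52314031-52314330, plus strand: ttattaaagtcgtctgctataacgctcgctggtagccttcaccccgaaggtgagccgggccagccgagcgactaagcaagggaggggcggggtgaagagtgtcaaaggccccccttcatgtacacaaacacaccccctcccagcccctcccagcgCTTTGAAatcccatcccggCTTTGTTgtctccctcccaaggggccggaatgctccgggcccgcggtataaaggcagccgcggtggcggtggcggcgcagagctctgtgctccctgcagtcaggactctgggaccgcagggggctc
APCDD1 promoter, chr18:10454385-10454684, plus strand: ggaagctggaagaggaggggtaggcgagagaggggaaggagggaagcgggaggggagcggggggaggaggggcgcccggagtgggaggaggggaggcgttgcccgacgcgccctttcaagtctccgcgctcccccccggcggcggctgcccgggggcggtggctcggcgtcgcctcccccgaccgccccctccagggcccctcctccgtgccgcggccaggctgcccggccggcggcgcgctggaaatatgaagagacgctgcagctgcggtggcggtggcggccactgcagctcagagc
The DKK1 window held 2 heptamers, CTTTGAA starting 95 bases and CTTTGTT starting 76 bases before the RefSeq start, both on the plus strand. The RefSeq start of a window can differ from the GENCODE start of the gene given with its values below. The APCDD1 window and both windows listed for RNF43 held 0, and 13.8% of all 35116 windows held at least 1. CG pairs, the dinucleotides in which cytosine is methylated and on which TET enzymes act, numbered 33 in the APCDD1 window and 20 in that of DKK1, against a median of 14 over all windows. At least as many were held by 17.2% and 41.2% of all windows. The RNF43 windows held 5 and 0 CG pairs.

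Per length, in TPM, the lines were led by different genes of the group. In SW480 vector cells with DMSO, APCDD1 had the highest level at 1172 ± 173 TPM (SD, n = 2 here and below), followed by AXIN2 (419 ± 55.2), NKD1 (192 ± 48.9), NOTUM (154 ± 5.86), RNF43 (94.5 ± 10.8), ZNRF3 (39.8 ± 10.8), DKK1 (9.13 ± 7.69) and DKK4 (5 ± 0.12). Neighbours in this order lay closer than their summed SDs for NKD1 and NOTUM and for DKK1 and DKK4. In SW620 vector cells with DMSO the order was NKD1 (1017 ± 38.1), NOTUM (568 ± 6.21), AXIN2 (143 ± 17.3), RNF43 (52.2 ± 5.14), ZNRF3 (42.3 ± 3.26), APCDD1 (31.2 ± 2.69), DKK1 (1.06 ± 1.49) and DKK4, which had no count. Only DKK1 and DKK4 lay within their summed SDs there. With Tet2CD, DKK4 moved from the last place in SW480 to the fifth (79.6 ± 22.2 TPM), level with RNF43 (79.4 ± 25.8), and NOTUM from the fourth to the second (345 ± 3.43). NOTUM and AXIN2 (247 ± 153 TPM) lay within their summed SDs there, and in replicate 2 AXIN2 was above NOTUM (355 against 347 TPM).

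**Figure D1:**
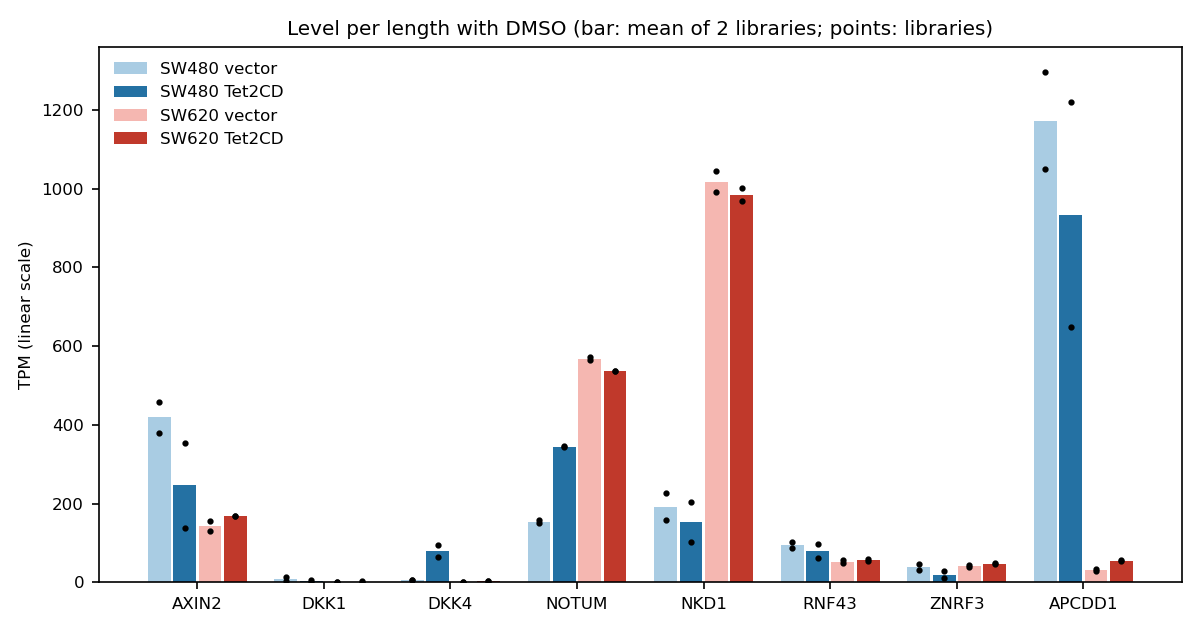
TPM (linear scale) of the 8 genes with DMSO, by line and construct; bars are means of 2 libraries and points are the libraries. APCDD1 led in SW480 (1172 TPM in vector cells) and NKD1 in SW620 (1017 TPM), and DKK4 rose from 5 to 79.6 TPM between SW480 vector and Tet2CD cells.

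The difference between the lines was tested in vector cells with DMSO. Of the 8 genes 5 were higher in SW480 and 2 in SW620, in a comparison in which 34.5% of all tested genes were called. APCDD1 was 32.7-fold higher in SW480 (log2 fold change 5.03, SE 0.19, adjusted p = 3.99e-11, from edgeR's quasi-likelihood fit, adjusted by Benjamini-Hochberg over 15302 genes, as for every adjusted p below), with 1672 and 1699 CPM against 50.4 and 52.5 CPM. NKD1 was 6.82-fold higher in SW620 (adjusted p = 1.29e-07), with 3986 and 4016 CPM against 509 and 664 CPM. NOTUM was 3.91-fold higher in SW620 (adjusted p = 6.25e-07), with 791 and 777 CPM against 202 and 199 CPM. The libraries of the lines did not overlap for 7 of the 8 genes, all but ZNRF3, nor for 77.3% of all tested genes. AXIN2 was 2.93-fold higher in SW480 (adjusted p = 0.0176), RNF43 1.62-fold (adjusted p = 0.00698) and DKK1 8.17-fold (adjusted p = 0.00597). The AXIN2 call was lost without any 1 of the 4 libraries (adjusted p = 0.0502 to 0.104), the DKK1 call without replicate 1 of either line (0.0765 and 0.0632) and the RNF43 call without replicate 2 of SW480 (0.0518). The DKK1 value was 3.03 on the log2 scale and ranged from 2.15 without replicate 1 of SW620, the library with no count, to 7.24 without replicate 2, which leaves that library alone and a fold that is no bound. DKK4 had 19 counts in the 2 SW480 libraries and 0 in the 2 SW620 libraries, 5.75-fold higher in SW480 with the empty group set to a floor of 3 counts. The error of the 19 counts is left out of this fold. For ZNRF3 the difference between the lines was -0.01 (SE 0.45, adjusted p = 0.989).

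**Figure D2:**
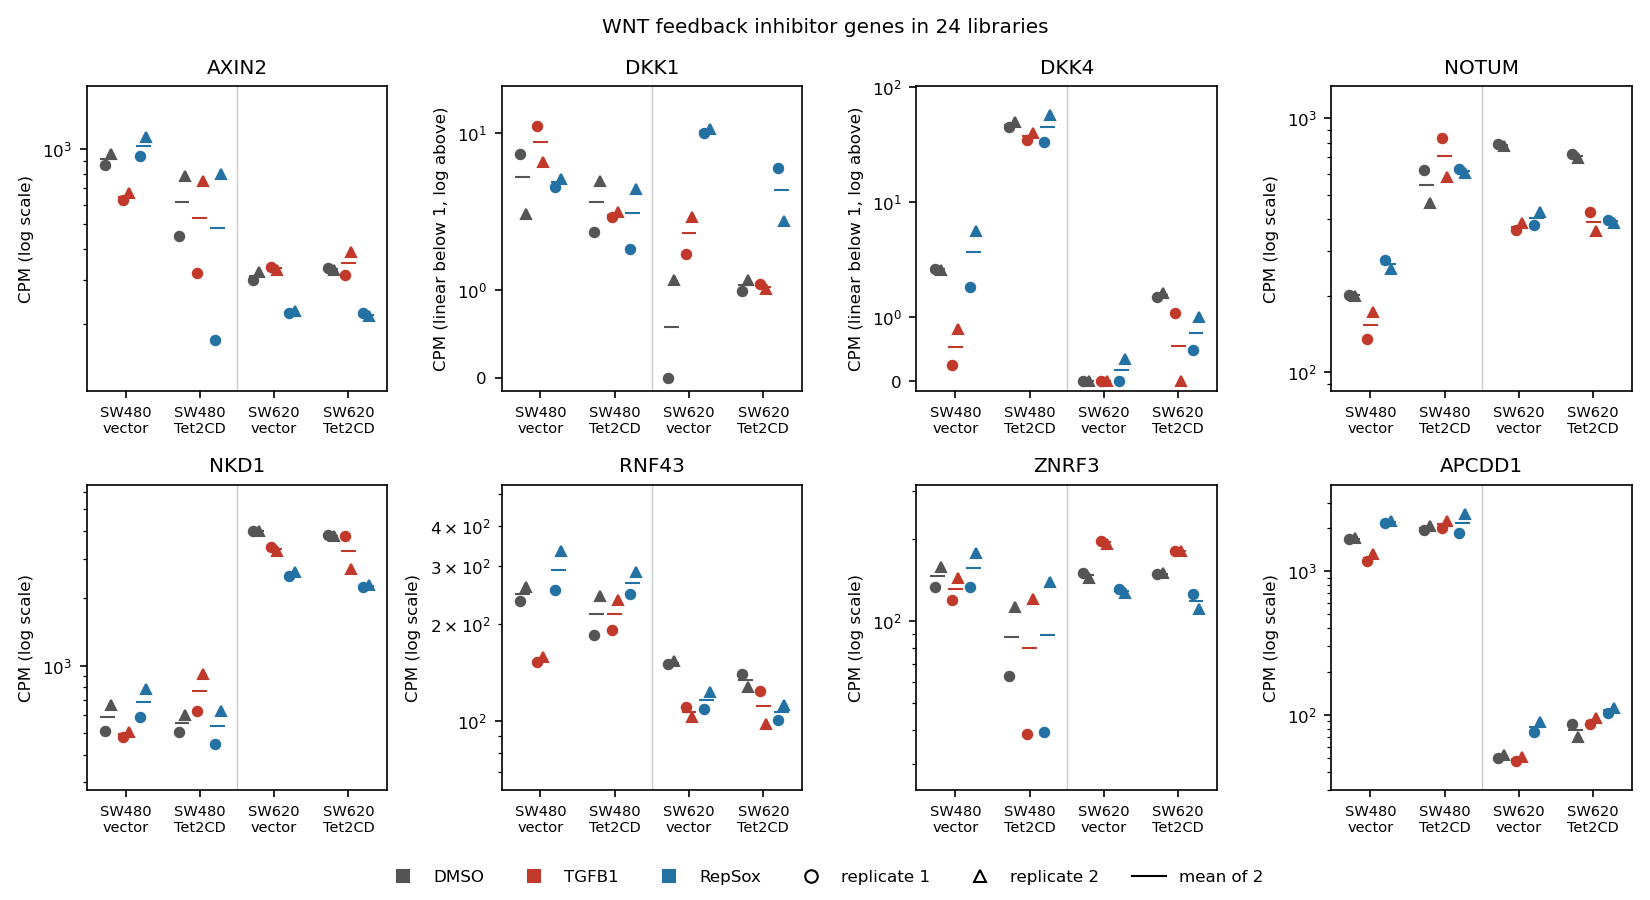
CPM of each gene in the 24 libraries, by line and construct, with colours for treatment, shapes for the replicate and lines for the mean of 2; the axes are logarithmic, and linear below 1 CPM for DKK1 and DKK4. DKK4 sat between 33.3 and 56.3 CPM in all 6 SW480 Tet2CD libraries and at no more than 5.59 CPM in the 6 vector libraries of that line.

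With Tet2CD in SW480 the secreted inhibitors DKK4 and NOTUM rose under each treatment, while AXIN2, DKK1, RNF43 and ZNRF3 passed under none. With DMSO 2 of the 8 genes were higher and 0 lower (6.76% of all tested genes were called in either direction, 4.19% higher and 2.57% lower), and the median log2 fold change of the 8 was -0.14 against 0.03 over all genes. With TGFB1 4 were higher and 0 lower (24.7% called, 14.7% higher and 10.0% lower), with a median of 0.56 against 0.07. With RepSox 2 were higher and 0 lower (19.3% called, 11.8% higher and 7.57% lower), with a median of -0.24 against 0. In SW620 0 of the 8 were called under any treatment (0.0261% of all genes called with DMSO, 0.00654% with TGFB1 and 0.0327% with RepSox). At an unadjusted p under 0.05 there were 2 of 8 in each of the 3 SW620 comparisons, with DMSO, TGFB1 and RepSox. Over all 15302 genes there were 416, 752 and 443 at that p. The 2 were DKK4 and APCDD1, both higher, with DMSO and with TGFB1. With RepSox they were APCDD1, higher, and DKK1, lower. DKK4 had only 13 counts against 0 with DMSO and 4 against 0 with TGFB1. DESeq2 called 0, 1 (APCDD1) and 0 of the 8.

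**Figure D3:**
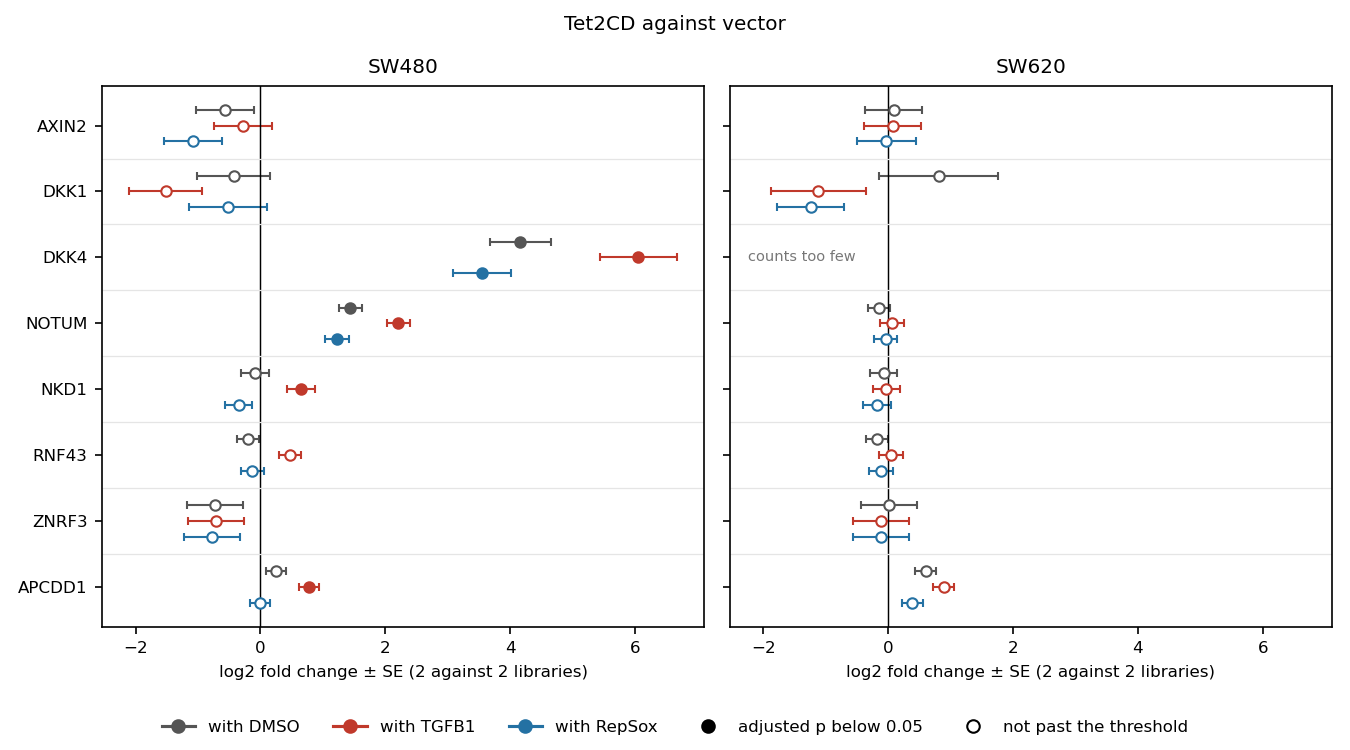
Log2 fold change of Tet2CD against vector cells (bars: SE, 2 against 2 libraries), with DMSO, TGFB1 or RepSox; filled points had an adjusted p below 0.05. DKK4 and NOTUM were filled under all 3 treatments in SW480, and no gene was in SW620, where DKK4 had too few counts to be drawn.

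In SW620 4 of these genes were called with TGFB1 or RepSox, and in SW480 none passed the test. The shares of all genes called, given with each count, were also larger in SW620. The RepSox calls of NKD1 and APCDD1 in SW620 were not firm when single libraries were left out. With TGFB1 in SW480 0 of the 8 genes were called (1.05% of all genes called, 0.732% higher and 0.314% lower), and with RepSox 0 (0% called). At an unadjusted p under 0.05 there were 2 of 8 with TGFB1 and 3 of 8 with RepSox. Over all 15302 genes there were 1967 and 433 at that p. DESeq2 also called 0 of 8 in both. In SW620 TGFB1 lowered 1 of 8, NOTUM (15.6% called, 8.31% higher and 7.27% lower). RepSox raised 2 of 8, DKK1 and APCDD1, and lowered 2, NOTUM and NKD1 (4.69% called, 2.01% higher and 2.68% lower). The median log2 fold change of the 8 was -0.31 with RepSox in SW620 against 0.02 over all genes. Without the 3 libraries that stand apart, which belong to SW480 but enter the shared estimate of the spread, 4 of 8 were called with TGFB1 (34.5% of all genes) and 7 of 8 with RepSox (15.4%) in SW620. TGFB1 and RepSox were both set against the same DMSO libraries, so their values stand side by side here and their likeness is not a result. Of 12 TGF-beta/SMAD target genes tested, TGFB1 raised 3 in SW480 and 4 in SW620. Without the 3 libraries that stand apart it raised 6 in each line. RepSox changed 0 in SW480, and in SW620 it raised 3, among them PMEPA1 (1.07 on the log2 scale, adjusted p = 2.73e-05) and TGFBI (0.75, adjusted p = 0.00117), and lowered 1, TGFB1 (-0.81, adjusted p = 0.0167). Without the 3 libraries RepSox raised 3 and lowered 3 in SW620.

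**Figure D4:**
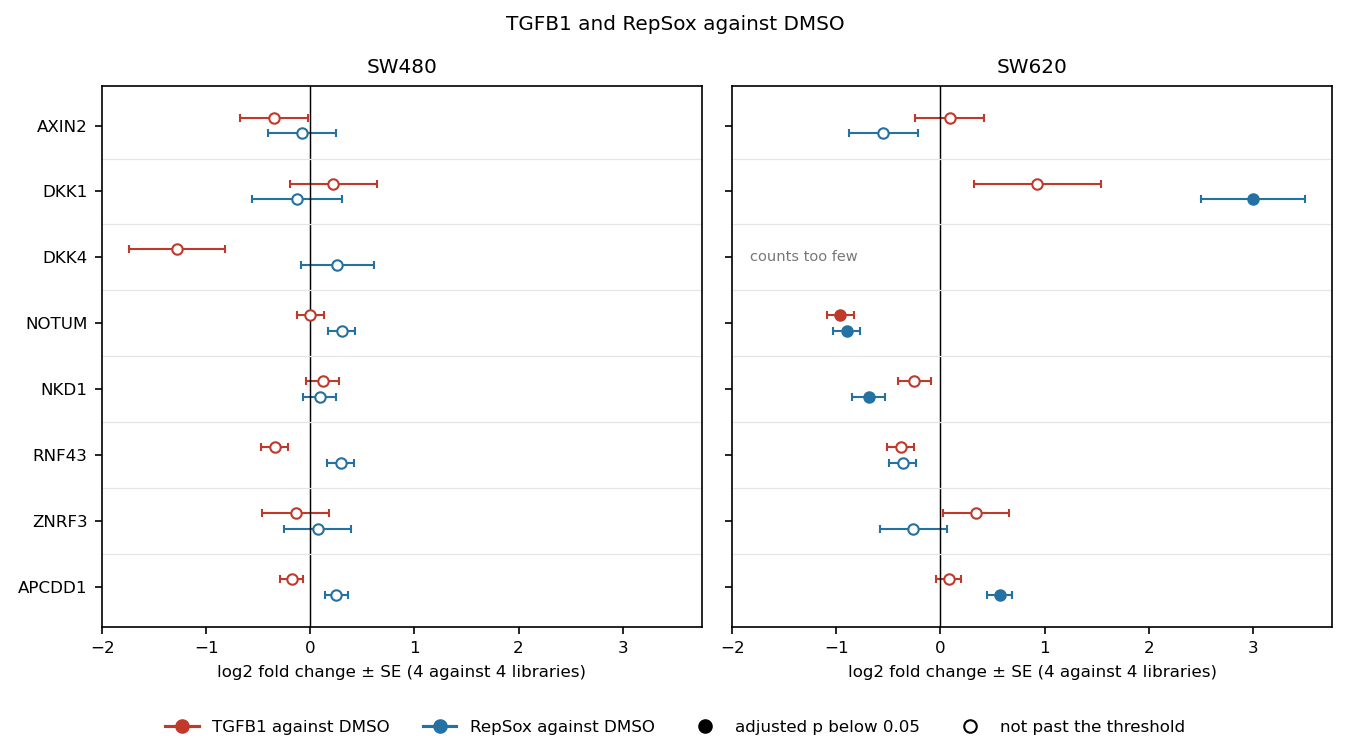
Log2 fold change of TGFB1 and RepSox against DMSO in each line, averaged over vector and Tet2CD cells (bars: SE, 4 against 4 libraries); filled points had an adjusted p below 0.05. No point was filled in SW480. In SW620 NOTUM fell with both, by 0.96 and 0.90, and DKK1 rose with RepSox by 3.

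DKK4 (ENSG00000104371, chromosome 8, 42374068 to 42377232, minus strand) encodes a secreted protein that binds LRP5/6. In SW480 vector cells it was measured at 2.64 and 2.56 CPM with DMSO, 0.256 and 0.813 CPM with TGFB1, and 1.82 and 5.59 CPM with RepSox. In Tet2CD cells it was at 44.7 and 49.2, 34.8 and 39.5, and 33.3 and 56.3 CPM. Every Tet2CD library lay above every vector library, under each treatment. The increase was 17.9-fold with DMSO (log2 fold change 4.16, SE 0.49, adjusted p = 0.000207), 66.2-fold with TGFB1 (6.05, SE 0.62, adjusted p = 2.79e-05) and 11.7-fold with RepSox (3.55, SE 0.47, adjusted p = 0.000424). The TGFB1 fold rests on 4 counts in the vector libraries, and its difference from the DMSO fold missed the threshold (1.89 on the log2 scale, SE 0.92, adjusted p = 1). All 3 calls were kept under every alternative and without any 1 library, while the size of the increase was less firm. With TGFB1 it was 5.43 without replicate 1 and 6.96 without replicate 2 of the vector cells, and with RepSox 2.98 and 4.57. In bulk cells, more cells with DKK4 RNA and more DKK4 RNA per cell cannot be told apart, here and for every gene below.

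In SW620 DKK4 was close to the floor. The 6 vector libraries held 1 count in all, in 1 of the RepSox libraries, and the 6 Tet2CD libraries held 23 counts, in 5 of 6 libraries. With DMSO there were 13 counts against 0, 3.46-fold higher with Tet2CD when the empty group is set to a floor of 3 counts. With TGFB1 there were 4 against 0, 1.71-fold higher by the same floor. The error of the 13 and 4 counts is left out, so these folds are no lower bounds. With RepSox there were 6 counts against 1, a ratio of 5.02 with a 95% counting interval of 0.609 to 231. The 3 comparisons had adjusted p = 1. Whether the increase differed between the lines cannot be judged at this depth.

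NOTUM (ENSG00000185269, chromosome 17, 81952507 to 81961840, minus strand) encodes the secreted carboxylesterase that inactivates WNT ligands. It was measured in SW480 vector cells at 202 and 199 CPM with DMSO, 135 and 173 CPM with TGFB1, and 276 and 255 CPM with RepSox. In SW480 Tet2CD cells it was at 627 and 463, 835 and 587, and 631 and 610 CPM. The 6 Tet2CD libraries lay above the 6 vector libraries, and their range took in the level of SW620 vector cells with DMSO (791 and 777 CPM). The increase was 2.72-fold with DMSO (log2 fold change 1.44, SE 0.19, adjusted p = 0.000278), 4.61-fold with TGFB1 (2.21, SE 0.19, adjusted p = 3.01e-06) and 2.34-fold with RepSox (1.22, SE 0.19, adjusted p = 0.00091). NOTUM has a GC content of 67.1% against a median of 48.7% over the listed genes. With an offset for GC content in the fit the increase with RepSox was 0.39 on the log2 scale and was no longer called (adjusted p = 0.134), while those with DMSO and TGFB1 were kept, at 0.92 or more under every alternative.

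In SW620 NOTUM fell with both treatments, while its Tet2CD values were -0.15, 0.06 and -0.04 with DMSO, TGFB1 and RepSox (SE 0.18, 0.19 and 0.19, adjusted p = 1 each). With Tet2CD it was at 722 and 694 CPM with DMSO, 425 and 358 CPM with TGFB1, and 398 and 388 CPM with RepSox. In vector cells it was at 361 and 387 CPM with TGFB1 and at 381 and 425 CPM with RepSox. All 8 treated libraries lay below all 4 DMSO libraries. The decrease was 1.95-fold with TGFB1 (log2 fold change -0.96, SE 0.13, adjusted p = 0.000129) and 1.87-fold with RepSox (-0.90, SE 0.13, adjusted p = 0.000595), and both calls were kept under every alternative and without any 1 library. TGFB1 is a ligand of the receptor that RepSox blocks, and the difference between them was -0.06 (SE 0.13, adjusted p = 0.795), in a comparison that called 29.1% of all genes. In SW480 the values against DMSO were 0.00 (SE 0.13, adjusted p = 1) with TGFB1 and 0.30 (SE 0.13, adjusted p = 1) with RepSox. The effects differed between the lines by 0.96 with TGFB1 (SE 0.19, adjusted p = 0.0122, 2.07% called) and by 1.20 with RepSox (SE 0.19, adjusted p = 0.00383, 1.03% called), kept without any 1 library. The Tet2CD effect with DMSO differed by 1.59 (SE 0.26, adjusted p = 0.0097, 0.484% called). That call was lost without any 1 of 5 libraries: SW480 Tet2CD replicate 1 (adjusted p = 0.057), SW480 vector replicate 1 (0.0532) and 2 (0.0805), and SW620 Tet2CD replicate 1 (0.0543) and 2 (0.0648).

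DKK1 (ENSG00000107984, chromosome 10, 52314296 to 52318042, plus strand), whose promoter is printed above, encodes the founding secreted LRP5/6 antagonist. The antisense gene PRKG1-AS1 overlaps it. In SW620 vector cells DKK1 was measured at 0 and 1.17 CPM with DMSO, 1.71 and 2.92 CPM with TGFB1, and 10 and 10.6 CPM with RepSox. In SW620 Tet2CD cells it was at 0.993 and 1.17, 1.09 and 1.02, and 5.96 and 2.76 CPM. The 4 RepSox libraries lay above the 4 DMSO libraries, with 69 and 35 counts in vector and Tet2CD cells against 4 and 9. The increase with RepSox was 8.02-fold (log2 fold change 3, SE 0.50, adjusted p = 0.00215) and was kept under every alternative and without any 1 library, at 2.53 to 5.07 on the log2 scale, the highest value being that without replicate 2 of the SW620 vector cells with DMSO. TGFB1 left a level 4.2-fold below that with RepSox (log2 fold change -2.07, SE 0.45, adjusted p = 0.0026).

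In SW480 DKK1 ranged from 1.82 to 11 CPM over the 12 libraries and passed no test of construct or treatment. Against vector it had values of -0.43 (SE 0.58, adjusted p = 0.645) with DMSO, -1.52 (SE 0.58, adjusted p = 0.0639) with TGFB1 and -0.52 (SE 0.62, adjusted p = 0.542) with RepSox. The value with TGFB1 was called with no filter on low counts (-1.56, adjusted p = 0.0187). Its RepSox value in SW480 was -0.13 (SE 0.43, adjusted p = 1), and the RepSox effect differed between the lines by -3.13 (SE 0.67, adjusted p = 0.0322). That difference lost its call without any 1 of 10 of the 16 libraries (adjusted p = 0.0697 to 0.139) and ranged from -5.21 to -2.67, so it was not firm at these counts. The value of -5.21 was that without replicate 2 of the SW620 vector cells with DMSO.

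APCDD1 (ENSG00000154856, chromosome 18, 10454628 to 10489948, plus strand), whose promoter is printed above, encodes a membrane-bound inhibitor that binds WNT and LRP proteins. In SW620 it was measured in vector cells at 50.4 and 52.5 CPM with DMSO, 48 and 50.6 CPM with TGFB1, and 75.6 and 89 CPM with RepSox. In SW620 Tet2CD cells it was at 86.1 and 70, 86.9 and 95.6, and 103 and 112 CPM. Within each treatment both Tet2CD libraries lay above both vector libraries. The log2 fold changes with Tet2CD were 0.60 (SE 0.17, unadjusted p = 0.00249, adjusted p = 1) with DMSO, 0.89 (SE 0.17, unadjusted p = 6.80e-05, adjusted p = 0.149) with TGFB1 and 0.39 (SE 0.17, unadjusted p = 0.033, adjusted p = 1) with RepSox, none past the threshold. The value with TGFB1 was called without the 3 libraries that stand apart (0.91, adjusted p = 0.00185), with the libraries of SW620 alone (0.91, adjusted p = 0.00583) and by DESeq2 (0.91, adjusted p = 3.97e-05). Averaged over the 3 treatments, a contrast chosen after the values were seen, it was 0.62 (SE 0.10, adjusted p = 0.00792, 0.314% called). RepSox raised APCDD1 1.48-fold in SW620 (log2 fold change 0.57, SE 0.12, adjusted p = 0.00929). This call was lost without any 1 of 5 libraries, SW620 vector DMSO replicates 1 and 2, SW620 vector RepSox replicate 2, SW620 Tet2CD DMSO replicate 2 and SW620 Tet2CD RepSox replicate 2 (adjusted p = 0.0553 to 0.0933). Its level with TGFB1 was 1.4-fold below that with RepSox (-0.49, SE 0.12, adjusted p = 0.00511), kept without any 1 library.

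In SW480, where APCDD1 was far more abundant, vector cells had 1672 and 1699 CPM with DMSO, 1175 and 1313 CPM with TGFB1, and 2151 and 2231 CPM with RepSox. Tet2CD cells had 1950 and 2047, 2007 and 2240, and 1853 and 2487 CPM. The groups of vector cells were ordered TGFB1, DMSO, RepSox without overlap, and no such order was seen with Tet2CD. The Tet2CD value was 0.77 with TGFB1 (SE 0.16, adjusted p = 0.00379), 0.25 with DMSO (SE 0.16, adjusted p = 0.333) and -0.01 with RepSox (SE 0.16, adjusted p = 0.965). The call with TGFB1 was lost with the libraries of SW480 alone (0.76, adjusted p = 0.0582), with the GC offset (0.44, adjusted p = 0.0981) and without replicate 1 of the vector cells with TGFB1 (0.66, adjusted p = 0.0765). In TPM the DMSO means had the opposite order, 934 ± 403 with Tet2CD against 1172 ± 173 with vector, and the length given for this gene ranged from 2092 to 3767 bases between libraries.

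AXIN2 (ENSG00000168646, chromosome 17, 65528563 to 65561647, minus strand) encodes the inducible scaffold of the destruction complex. In SW480 vector cells it was at 868 and 954 CPM with DMSO, 624 and 667 CPM with TGFB1, and 942 and 1122 CPM with RepSox. In Tet2CD cells replicate 1 was at 451, 319 and 172 CPM and replicate 2 at 779, 747 and 797 CPM. The lowest values were those of the 3 libraries that stand apart. Replicate 2 lay below both vector libraries with DMSO and with RepSox, and above both with TGFB1. The Tet2CD values were -0.57 (SE 0.46, adjusted p = 0.435) with DMSO, -0.28 (SE 0.46, adjusted p = 0.674) with TGFB1 and -1.08 (SE 0.47, adjusted p = 0.101) with RepSox. The last was called without replicate 2 of the SW480 Tet2CD cells with RepSox (-2.62, adjusted p = 0.000352), with a term for the library number set (-1.20, adjusted p = 0.0439) and with no filter on low counts (-1.11, adjusted p = 7.51e-05).

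In SW620 AXIN2 was at 300 and 323 CPM in vector and 334 and 330 CPM in Tet2CD cells with DMSO. With RepSox it was at 221 and 224 CPM and at 221 and 214 CPM, and with TGFB1 at 339 and 330 CPM and at 314 and 388 CPM. The 4 RepSox libraries lay below the 8 others. In the fit of all 24 libraries this was a value of -0.55 (SE 0.33, adjusted p = 0.467). With the libraries of SW620 alone it was a decrease of 0.56 (adjusted p = 7.88e-05), and without the 3 libraries that stand apart one of 0.57 (adjusted p = 7.43e-05). Against RepSox the TGFB1 level was 0.64 higher on the log2 scale (SE 0.33, adjusted p = 0.163), called without the 3 libraries (0.63, adjusted p = 2.73e-06).

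ZNRF3 (ENSG00000183579, chromosome 22, 28883592 to 29057487, plus strand, overlapped by ZNRF3-AS1) and RNF43 encode transmembrane E3 ubiquitin ligases that remove Frizzled receptors. ZNRF3 was measured in SW480 vector cells at 134 and 159 CPM with DMSO, 120 and 144 CPM with TGFB1, and 134 and 179 CPM with RepSox. In SW480 Tet2CD cells replicate 1 was at 62.8, 38.5 and 39.4 CPM and replicate 2 at 113, 121 and 139 CPM. As for AXIN2, the lowest values were those of the 3 libraries that stand apart. Replicate 2 lay below both vector libraries with DMSO, and between them with TGFB1 and with RepSox. The Tet2CD values were -0.73, -0.71 and -0.78 (SE 0.45 each, adjusted p = 0.309, 0.245 and 0.207). With no filter on low counts all 3 were called (adjusted p = 0.0476, 0.0294 and 0.0136), and without replicate 2 of the Tet2CD cells those with TGFB1 (-1.83, adjusted p = 0.0104) and RepSox (-2.02, adjusted p = 0.00391). Averaged over the 3 treatments the decrease was called at 0.74 (SE 0.26, adjusted p = 0.0252), in a contrast in which 54.5% of all genes were called.

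In SW620 ZNRF3 was at 151 and 144 CPM in vector and 149 and 150 CPM in Tet2CD cells with DMSO. With TGFB1 it was at 198 and 193 CPM and 181 and 181 CPM, and with RepSox at 132 and 127 CPM and 126 and 111 CPM. The 3 treatments did not overlap, in the order TGFB1, DMSO, RepSox. In the fit of all libraries the value was 0.34 with TGFB1 (SE 0.32, adjusted p = 0.522) and -0.26 with RepSox (SE 0.32, adjusted p = 0.784). Without the 3 libraries TGFB1 raised it by 0.31 (adjusted p = 0.0127) and RepSox lowered it by 0.28 (adjusted p = 0.0491).

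RNF43 (ENSG00000108375, chromosome 17, 58352500 to 58417595, minus strand, overlapped by SUPT4H1 and TSPOAP1-AS1) was measured in SW480 vector cells at 234 and 259 CPM with DMSO, 152 and 158 CPM with TGFB1, and 253 and 334 CPM with RepSox. In SW480 Tet2CD cells it was at 185 and 244, 191 and 236, and 247 and 288 CPM. The vector libraries with TGFB1 were the lowest of the line. In the direct comparison of the treatments in SW480, 1 of the 8 genes was called (2.05% of all genes, 0.830% lower), RNF43, which was 1.54-fold lower with TGFB1 than with RepSox (log2 fold change -0.62, SE 0.13, adjusted p = 0.0172). The call was lost with the libraries of SW480 alone (adjusted p = 0.208) and without replicate 1 (0.106) or 2 (0.0982) of the vector cells with TGFB1 or replicate 2 of the vector cells with RepSox (0.113). In vector cells alone, tried after the values were seen, RNF43 (-0.92, adjusted p = 0.018), APCDD1 (-0.82, adjusted p = 0.0178) and NOTUM (-0.79, adjusted p = 0.0465) were all lower with TGFB1 than with RepSox (1.55% called). Without the 3 libraries that stand apart 5 of 8 were called (11.6% of all genes), all lower with TGFB1, namely RNF43, APCDD1 (-0.49, adjusted p = 0.00201), NOTUM (-0.42, adjusted p = 0.0106), AXIN2 (-0.39, adjusted p = 0.0138) and DKK4 (-1.67, adjusted p = 0.0165). With Tet2CD the RNF43 value in SW480 under TGFB1 was 0.47 (SE 0.18, adjusted p = 0.0718), called by DESeq2 (adjusted p = 0.0351) and without the 3 libraries (0.58, adjusted p = 0.0148). In SW620 RNF43 was at 150 and 153 CPM in vector and 140 and 128 CPM in Tet2CD cells with DMSO, at 98.3 to 124 CPM in the 4 TGFB1 libraries and at 101 to 123 CPM in the 4 RepSox libraries. The treated libraries lay below the DMSO libraries, with values of -0.38 (SE 0.13, adjusted p = 0.0562) and -0.36 (SE 0.13, adjusted p = 0.151). Without the 3 libraries that stand apart both were called (-0.41, adjusted p = 0.00289, and -0.38, adjusted p = 0.0117).

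NKD1 (ENSG00000140807, chromosome 16, 50548330 to 50649249, plus strand, overlapped by 2 antisense genes) encodes a Dishevelled-binding protein. In SW620 it was at 3986 and 4016 CPM in vector and 3826 and 3792 CPM in Tet2CD cells with DMSO. With TGFB1 it was at 3382 and 3265 CPM and at 3801 and 2698 CPM, and with RepSox at 2527 and 2619 CPM and at 2238 and 2293 CPM. All RepSox libraries lay below all others of the line. RepSox lowered NKD1 1.62-fold (log2 fold change -0.69, SE 0.16, adjusted p = 0.0165), a call lost with the GC offset (-0.60, adjusted p = 0.0998) and without any 1 of the 8 libraries (adjusted p = 0.0627 to 0.0829). Of the 8 genes 3 were called between TGFB1 and RepSox in SW620, 1 higher with TGFB1 (NKD1, 0.44, SE 0.16, adjusted p = 0.0421) and 2 lower (DKK1 and APCDD1), where 29.1% of all genes were called, 14.5% in each direction. The NKD1 call was kept without 1 of the 8 libraries, SW620 Tet2CD TGFB1 replicate 2, and lost without each of the other 7 (adjusted p = 0.104 to 0.179). In SW480 NKD1 ranged from 444 to 916 CPM. It was called with Tet2CD under TGFB1 only (0.65, SE 0.22, adjusted p = 0.0446), with 625 and 916 CPM against 478 and 507 CPM in vector cells. That call was lost with the libraries of SW480 alone (adjusted p = 0.172), with the GC offset (0.19, adjusted p = 0.649) and without replicate 1 (0.23) or 2 (0.161) of the vector cells with TGFB1 or replicate 2 of the Tet2CD cells with TGFB1 (0.30 on the log2 scale, adjusted p = 0.35).

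Tet2CD was also set directly beside the treatments in SW480. Tet2CD cells with DMSO had 12.1-fold more DKK4 than vector cells with RepSox (log2 fold change 3.60, SE 0.46, adjusted p = 0.000437) and 2.05-fold more NOTUM (1.04, SE 0.19, adjusted p = 0.00383), the 2 of 8 genes called (5.95% of all genes). The DKK4 value was 3.05 without replicate 1 and 4.64 without replicate 2 of the vector cells with RepSox. The NOTUM call was lost with the libraries of SW480 alone, with the GC offset, and without replicate 1 of the Tet2CD cells with DMSO or replicate 2 of the vector cells with RepSox (adjusted p up to 0.0984 over these). Against vector cells with TGFB1, Tet2CD cells with DMSO had 83.6-fold more DKK4 (6.39, SE 0.62, adjusted p = 1.29e-05), 3.54-fold more NOTUM (1.82, SE 0.19, adjusted p = 1.25e-05) and 1.61-fold more APCDD1 (0.68, SE 0.16, adjusted p = 0.00727), 3 of 8 called (25.7% of all genes). This DKK4 value rests on 4 counts in the vector cells and was 5.78 without replicate 1 and 7.31 without replicate 2 of them. The APCDD1 call was lost with the libraries of SW480 alone, with the GC offset, and without replicate 1 of either group (adjusted p up to 0.0975 over these).

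Whether Tet2CD cells of SW480 answered the treatments differently from vector cells was tested by interaction. For TGFB1 0 of 8 were called (0.0131% of all genes). At an unadjusted p under 0.05 there were 4 of the 8, and 741 of all 15302 genes. The 4 were NOTUM (0.76, SE 0.26, adjusted p = 0.855), NKD1 (0.74, SE 0.31, adjusted p = 1), RNF43 (0.66, SE 0.26, adjusted p = 0.948) and APCDD1 (0.53, SE 0.23, adjusted p = 1). All 4 values were positive. For RepSox 0 of 8 were called and 0 had an unadjusted p under 0.05 (0% of all genes called, and 294 of 15302 at that unadjusted p). DESeq2 called 0 of 8 in both.

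The rest of the pathway was described with 4 lists. Among 17 other WNT inhibitors tested of 26, Tet2CD in SW480 with DMSO raised 3 and lowered 1 (median log2 fold change 0.34 against 0.03 over all genes), in the comparison that called 4.19% of all genes higher and 2.57% lower. Those raised were DKK3, a secreted relative of DKK1 (2.21, SE 0.25, adjusted p = 7.45e-05), DACT3, a Dishevelled antagonist (2.72, SE 0.55, adjusted p = 0.00724), and CTNNBIP1, which blocks the binding of beta-catenin to TCF factors (1.24, SE 0.28, adjusted p = 0.0154). Of 30 ligands and receptors tested of 35, 1 rose, the receptor FZD10 (2.53, adjusted p = 0.00201), and 1 fell, the co-receptor LRP6 (-1.30, adjusted p = 0.0363). Of 24 genes of the beta-catenin machinery tested of 25, 0 rose and 3 fell, among them the transcriptional co-activator BCL9 (-1.29, adjusted p = 0.00501) and the tankyrase TNKS, which marks AXIN proteins for degradation (-1.09, adjusted p = 0.0494). Of 21 other beta-catenin target genes tested of 25, 1 rose, the Nodal co-receptor TDGF1 (1.30, adjusted p = 0.0133), and 0 fell. Counts of 1 or 2 in lists of this length are near the share over all genes. Without the 3 libraries that stand apart (10.2% of all genes called) the other inhibitors had 4 higher and 1 lower, the machinery 0 and 5, and the targets 2 and 5, and the genes named here were called in the same direction. CTNNB1, the gene of beta-catenin, was at 571 and 1054 CPM in SW480 Tet2CD cells with RepSox and at 1369 and 1475 CPM in vector cells (-0.81, SE 0.25, adjusted p = 0.0357). Its values were -0.54 (adjusted p = 0.182) with DMSO and -0.20 (adjusted p = 0.549) with TGFB1. The low library with RepSox is one of the 3 that stand apart, and without these the value was -0.44 (adjusted p = 0.0162). The call was lost with the libraries of SW480 alone (0.187), without that library only (-0.44, adjusted p = 0.387) and without replicate 1 (0.0891) or 2 (0.189) of the vector cells.

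With RepSox in SW620, 5 of the 21 other targets fell and 2 rose (median -0.22 against 0.02), where 2.68% of all genes were lower and 2.01% higher. Those that fell included the stem cell receptor LGR5 (-1.42, SE 0.25, adjusted p = 0.00327), the transcription factor SP5 (-0.75, SE 0.14, adjusted p = 0.00419) and the ephrin receptor EPHB2 (-0.54, SE 0.10, adjusted p = 0.00443). The 1 other inhibitor of 17 that moved was AXIN1, the constitutive scaffold of the destruction complex, which fell (-0.89, SE 0.12, adjusted p = 0.000242). Of the ligands and receptors 2 rose and 2 fell, and of the machinery 0 of 24 were called (5 lower without the 3 libraries that stand apart, with 15.4% of all genes called). Without these libraries the targets had 2 higher and 7 lower, the ligands and receptors 2 and 3, and the other inhibitors 0 and 2. With TGFB1 in SW620 the targets were split, 2 higher and 3 lower (median -0.02; 8.31% of all genes were higher and 7.27% lower), with VEGFA up (1.96, adjusted p = 3.94e-05) and EPHB2 down (-0.58, adjusted p = 0.00101). Ligands and receptors rose in 7 of 30 and fell in 0, among them the ligand WNT10A (1.65, adjusted p = 0.00179) and the R-spondin receptor LGR6 (0.82, adjusted p = 0.000455). Other inhibitors rose in 2 of 17, SFRP5 (0.98, adjusted p = 0.0167) and DKK3 (1.05, adjusted p = 0.0299). Without the 3 libraries the targets had 4 higher and 6 lower with TGFB1 in SW620, and the ligands and receptors 10 and 1. The other inhibitors had 3 and 2, and the machinery 7 and 4, in a fit that called a larger share of all genes. With RepSox in SW480 0 genes of the 4 lists were called, and with TGFB1 1, VEGFA (1.14, adjusted p = 0.0268). Without the 3 libraries, which belong to this line, RepSox again gave 0. TGFB1 then gave 2 targets higher, 1 gene of the ligands and receptors higher, and of the machinery 1 higher and 2 lower.

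The patterns of the 8 genes over the 12 groups were compared by Pearson's r of the mean log2 CPM after removal of each line's mean, as a description over 12 groups that share lines and libraries. AXIN2 and ZNRF3 (r = 0.89) and DKK4 and NOTUM (r = 0.85) ran most alike, and DKK4 and ZNRF3 (r = -0.80) and NOTUM and ZNRF3 (r = -0.74) most opposed. With replicate 2 alone standing for the 3 SW480 Tet2CD groups, tried after the values were seen, these were 0.80, 0.84, -0.35 and -0.26. The strength of these opposed pairs therefore rests on the 3 libraries that stand apart. DKK1 and NKD1 were also opposed (r = -0.72), and stayed so with replicate 2 alone (r = -0.77). The genes most like DKK4 were SLC43A2 (0.980), PLEKHG6 (0.980) and C1QL1 (0.975), and those most like NOTUM were ACSF3 (0.973), CD59 (0.966) and AP002748.3 (0.966). For AXIN2 they were LASP1 (0.972), PTPN9 (0.950) and TWSG1 (0.943), and for ZNRF3 STEAP2 (0.982), TJP1 (0.980) and PCNX2 (0.968). Those of DKK1 were HTD2 (0.923), PADI1 (0.898) and KIF26A (0.875), those of APCDD1 were KRT5 (0.917), TMEM42 (0.877) and C20orf96 (0.873), and those of RNF43 were KBTBD7 (0.887), DEF6 (0.881) and RCN1 (0.854). NKD1 had the nearest neighbours LINC01268 (0.910), METTL7B (0.866) and ZNF362 (0.854). Without the 3 libraries the r of these neighbours stayed at 0.975 or more for DKK4, 0.926 or more for NOTUM and 0.906 or more for APCDD1. It was down to 0.586 for AXIN2 (TWSG1), 0.672 for RNF43 (DEF6), 0.695 for NKD1 (METTL7B), 0.770 for DKK1 (HTD2) and 0.776 for ZNRF3 (TJP1).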

How the data were processed

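The 24 gene tables, 1 per library, hold human Ensembl identifiers, and positions and symbols were taken from GENCODE release 29 (GRCh38). Per the study's methods, reads were trimmed (Trimmomatic), quantified by RSEM (bowtie2, Ensembl transcripts) and normalized for GC content. Bowtie, RSEM and mm10, a mouse build at odds with the identifiers, are listed in the submitters' processing notes. No source used here states a strand setting. The spans of DKK1, NKD1, RNF43 and ZNRF3 overlap those of other genes, and whether their reads could be mixed with those of these genes was not examined. The authors deposited per gene an expected count, RSEM's estimate of fragments, used rounded, and a TPM value, scaled per length and library; the deposited FPKM was not used.

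Differences in expected counts were assessed by edgeR 4.0.16's quasi-likelihood F-test (R 4.3.3; TMM scaling, filterByExpr, 15302 genes) in 1 fit of 12 group means (12 residual degrees of freedom, common biological coefficient of variation 21.3%), with a threshold of 0.05 on Benjamini-Hochberg adjusted p over all genes tested; SE is the absolute log2 fold change over the root of F. The procedure was tested on counts simulated with the same dispersion for all genes and libraries. No libraries that stand apart were simulated, so this test cannot show how such libraries affect the p-values. TGFB1 and RepSox were compared averaging both constructs. Replicate numbers only name libraries in accession order. The labels do not tie the 2 libraries of a group to separate cultures. Their spread, on which the p-values rest, may therefore be technical. All replicate pairs differed by more than sampling noise (chi-square per degree of freedom 1.61 to 38.84). Folds against 0 counts use a floor of 3 counts over the empty group and leave out the error of the other group's counts. Floors and intervals cover counting error only.

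Alternatives were relative log expression scaling, no filter, DESeq2 1.42.0, the line's libraries alone, a term for library number set, a GC offset, leaving out 3 libraries or each library in turn, and, chosen after seeing the data, vector cells only, a mean over treatments and the likeness of patterns without the 3 libraries. The 8 genes, the lists and these comparisons were chosen with earlier results of these data known. Named genes are the 8, TET2 and CTNNB1, up to 3 genes per list and comparison by smallest adjusted p, the treatment check and the 3 genes nearest in pattern (mean log2 CPM of at least 1).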

Additional observations from a re-analysis of the deposited data

Results flagged for a closer look

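Of the differences between SW480 and SW620 in the response to the same treatment or construct, 4 passed the test of the difference itself (edgeR's quasi-likelihood test, adjusted over all genes). NOTUM differed in its Tet2CD response with DMSO (1.59 on the log2 scale, SW480 minus SW620, adjusted p = 0.0097), in its TGFB1 response (0.96, adjusted p = 0.0122) and in its RepSox response (1.20, adjusted p = 0.00383). DKK1 differed in its RepSox response (-3.13, adjusted p = 0.0322), on 4 to 37 counts per group with DMSO. That call was lost without any 1 of 10 of the 16 libraries, and the value ranged from -5.21 to -2.67. The NOTUM call for Tet2CD was lost without any 1 of 5 libraries.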

How the results depend on the processing

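No call turned its direction under any alternative. Of the 33 calls on single genes, 25 were kept under all alternatives other than left-out libraries, 20 without any 1 library and 19 under everything. The share of all genes called moved between fits as well. For Tet2CD in SW480 it was 6.76% with DMSO and 54.5% as a mean over treatments. For RepSox in SW620 it was 4.69%, and 0.863% in vector cells only. A move in the count of the 8 is therefore not a result about these genes alone. The numbers of the 8 genes called moved by over 1.5 times as follows, with some smaller moves beside them, and the cause was not tested. The 3 libraries are those of SW480 Tet2CD replicate 1. Tet2CD in SW480 gave 2 with DMSO, 3 with no filter and 4 as a mean over treatments; with TGFB1 4, but 6 with no filter, 5 by DESeq2 and without the 3 libraries, 2 with the line's libraries alone and with the GC offset, and 2 to 4 without 1 library; with RepSox 2, but 4 with no filter, 3 with the set term, 1 with the GC offset and 2 to 5 without 1 library. Tet2CD in SW620 gave 0 with DMSO and 1 as a mean over treatments, and 0 with TGFB1 but 1 by DESeq2, with the line alone and without the 3 libraries. TGFB1 in SW620 gave 1, but 2 by DESeq2, with the set term and with the GC offset, and 4 with the line alone and without the 3 libraries. RepSox in SW620 gave 4, but 7 with the line alone and without the 3 libraries, 2 in vector cells only and 2 to 3 without 1 library. TGFB1 against RepSox gave 1 in SW480, but 2 with relative log expression scaling, no filter or the set term, 3 by DESeq2 and in vector cells only, 0 with the line alone, 5 without the 3 libraries and 0 to 2 without 1 library; in SW620 it gave 3, but 2 with the GC offset and in vector cells only, 5 with no filter, with the line alone and without the 3 libraries, and 2 to 3 without 1 library. The line difference of the Tet2CD effect gave 1, and 0 to 1 without 1 library, and that of RepSox 2, but 4 by DESeq2, 5 without the 3 libraries (added were AXIN2 at 0.67, NKD1 at 0.86 and RNF43 at 0.63, SW480 minus SW620) and 1 to 3 without 1 library. Tet2CD with DMSO against vector with RepSox gave 2, but 4 with no filter, 1 with the line alone and with the GC offset, and 1 to 2 without 1 library. Depth limits DKK4 in SW620 and DKK1, which were at a few counts per library. No paired analysis was possible because the labels carry the same read tag in every library and number the libraries 21 to 44 without repeats; the set term, for numbers 21 to 32 against 33 to 44, is the closest to it.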
